A study of Rattus norvegicus with 6 samples.

Results

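The corticotropin-releasing hormone (CRH) system was examined in the hippocampus through 5 genes: Crh, Ucn, Crhr1, Crhr2 and Crhbp. Probes were chosen by the gene that their RefSeq accession names, without regard to their values. This gave 7 of the 30367 non-control probes on the array: 2 for Crh, 2 for Crhr2 and 1 each for Ucn, Crhr1 and Crhbp. The RNA was labelled as hippocampus of male Wistar rats. Surgery took place at 2 months of age and was either orchidectomy, the removal of the testes, or a sham operation. After 2 weeks the animals of both groups were anaesthetised with ketamine and medetomidine and the tissue was collected. The labels give 3 biological replicates for either group, each on a 1-colour Cy3 Agilent array of its own. No hormone replacement group was analysed here, and whole hippocampal RNA does not separate cell types.

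CRH is the hypothalamic peptide that starts the pituitary-adrenal stress response, and in the hippocampus it is made mainly by GABAergic interneurons. Ucn encodes urocortin, a related peptide that binds both receptors. Crhr1 encodes the receptor that CRH prefers and that hippocampal pyramidal neurons carry. Crhr2 encodes a receptor that favours the urocortins, with a long-known site of expression in the rodent choroid plexus, which secretes the cerebrospinal fluid. Both receptors couple to the stimulatory G protein, cyclic AMP and the transcription factor CREB. Crhbp encodes a secreted protein that binds CRH and urocortin and keeps them from their receptors.

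The promoter sequences are shown because these receptors signal to CREB, whose binding site is the cyclic AMP response element (CRE). Ucn is the gene with a match among the 4 searched, and Crhr2 the one that stood highest on the array labelled sham 2. The RefSeq promoter table of the GRCr8 assembly held 4 of the 5 genes (Ucn, Crhr1, Crhr2 and Crhbp). Crh had no entry in it, so whether its promoter holds a CRE was not examined. The 250 bases before the annotated start were searched on both strands for the CRE, TGACGTCA, which reads the same on either strand. The Ucn promoter held a match, 110 to 103 bases before the start, and no match was found in these windows of the other 3 genes. Of 33469 promoters of all genes 1.59% held a match. The steroid receptor element TGTTCT, also searched on both strands, matched 17.5% of promoters and none of these 4 genes. The Ucn and Crhr2 windows are printed 5′ to 3′ on the gene's strand, with the CRE in capitals. Ucn lies on the plus strand at chr6:30957836-30958085 and Crhr2 on the minus strand at chr4:85581464-85581713.
Ucn: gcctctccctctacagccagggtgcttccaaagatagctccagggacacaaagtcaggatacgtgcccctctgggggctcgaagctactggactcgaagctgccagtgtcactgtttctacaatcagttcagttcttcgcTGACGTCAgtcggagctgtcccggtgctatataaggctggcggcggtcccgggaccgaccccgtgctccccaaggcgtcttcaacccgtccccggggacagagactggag
Crhr2: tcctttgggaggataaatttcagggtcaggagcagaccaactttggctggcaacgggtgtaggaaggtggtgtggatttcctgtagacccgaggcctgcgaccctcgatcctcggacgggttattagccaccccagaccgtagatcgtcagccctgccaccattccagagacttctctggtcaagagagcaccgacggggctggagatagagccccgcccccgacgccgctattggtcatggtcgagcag
The matches describe letters in these windows and say nothing of whether a factor bound there.

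For no gene of the CRH system did the difference between orchidectomized and sham-operated rats pass the test. All 7 probes were tested, 0 passed a Benjamini-Hochberg adjusted p under 0.05 in limma over all probes, and in all 7 the values of the groups overlapped. That held over the 6 arrays and again without the array labelled sham 2, which carries an expression profile unlike hippocampus. Among all 24630 probes tested over 6 arrays, 0% were called and 8% had groups that did not overlap. Without the array labelled sham 2 these shares were 0% and 16.3% of 25208 probes. At an unadjusted p under 0.05 stood 0 of the 7 probes in either comparison, beside 0.731% and 2.71% of all probes. A probe was tested if it was well above background on every array of at least 1 group. Over 6 arrays both Crh probes and Crhbp met this only in the orchidectomized group, where their mean was higher. The Crhr2 probe A_64_P079543 met it only in the sham group, where its mean was higher, in both comparisons.

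The array labelled sham 2 stood apart from the other 5. The 18 choroid plexus genes detected, of 20 listed, were all higher on it than the mean of the other 5 arrays, by a median of 8.98 log2 units, and all 18 were well above background there. Their summed level, in units of the array's 75th percentile, was 449 there, 23.8 to 42.1 on the orchidectomized arrays, and 16.6 and 12.0 on sham 1 and sham 3. All 13 genes of glutamatergic hippocampal neurons were lower on it, with a median of -7.16 log2 units against the mean of the others. Their summed level was 0.797 there against 70.0 to 87.9, and 3 of the 13, Slc17a7 among them, were not well above background. Of 16 GABAergic interneuron genes 15 were lower on it, with a summed level of 8.96 against 57.9 to 71.1, and all 16 stayed well above background. The 16th was Reln, named after its value was seen. On each of the other 5 arrays the 13 glutamatergic genes of hippocampus were well above background. The other lists moved as follows on the array labelled sham 2, as the median of its value less the mean of the other 5: ependyma 5.08, meninges and vessel wall 1.39, blood 0.49, thalamus and habenula -0.45, microglia -1.32, hypothalamus -1.68, amygdala and cortex -2.67, oligodendrocytes -4.37, astrocytes -4.65 and interneurons -4.97. The profile of that array was thus unlike the hippocampal one of the other 5, and how it came about cannot be settled from the values. A sham mean over 6 arrays counts that array by its label only. Results on the members are therefore given with and without that array, and the part that its profile plays in each was not tested.

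**Figure D1:**
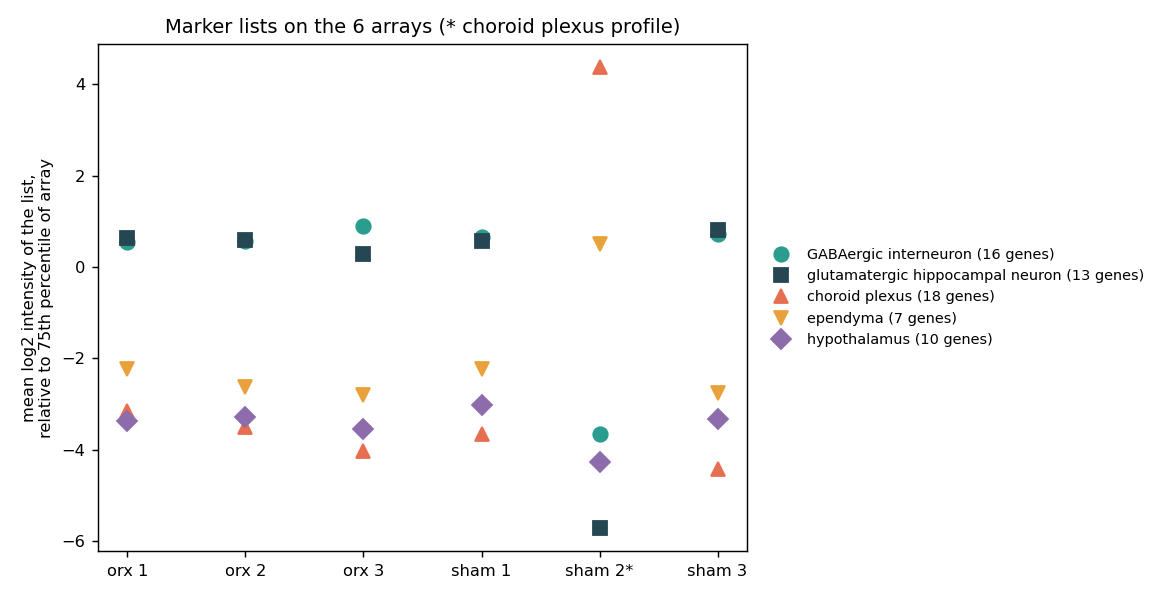
Mean log2 intensity, less the array's 75th percentile, of 5 marker lists on each of the 6 arrays, orx standing for orchidectomized. The array labelled sham 2 lies apart, with choroid plexus genes at 4.38 and glutamatergic neuron genes at -5.71.

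Crh itself gave similar values in both groups on the arrays with a hippocampal profile. Levels here and below are given in log2 units above or below the 75th percentile of an array's probes. A difference is the orchidectomized mean less the sham mean. The Crh probe A_64_P116972 read -3.06, -2.63 and -2.65 in orchidectomized 1 to 3 and -3.27, -9.43 and -2.52 in sham 1 to 3. Orchidectomized values lay between the lowest and highest sham values, and the array labelled sham 2 was far below all others. Over 6 arrays the difference was 2.29 ± 1.86 (SE; limma adjusted p 0.775). Without the array labelled sham 2 the means were -2.78 ± 0.24 (SD, n = 3) and -2.89 ± 0.53 (SD, n = 2). The difference was then 0.12 ± 0.27 (SE; limma adjusted p 0.988). Its 95% interval ran from 0.682-fold to 1.72-fold, and a change within that range could not be told from none on these 5 arrays.

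The second Crh probe, A_43_P12478, was spotted 10 times on each array and so shows the spot-to-spot error within an array. Spots of the same array are not replicates of a group, and they do not show the technical error between arrays. It read -5.06, -4.38 and -4.76 in orchidectomized 1 to 3 and -5.03, -9.31 and -4.35 in sham 1 to 3. Spot-to-spot SD within an array was 0.077 to 0.161 log2 units on the 5 arrays with a hippocampal profile, and the SD between those arrays was 0.34. The spots of orchidectomized 2 ran from -4.60 to -4.22 and those of sham 3 from -4.46 to -4.20. The spots of orchidectomized 1 ran from -5.17 to -4.96 and those of sham 1 from -5.24 to -4.85. Every spot used on the former pair was thus brighter than every spot used on the latter, and each pair holds 1 animal of each group. Within each pair the spot ranges overlapped, and the spots of orchidectomized 3, from -4.90 to -4.38, reached into the ranges of both pairs. The difference between groups was -0.04 ± 0.29 (SE) without the array labelled sham 2 (limma adjusted p 0.991). Over 6 arrays it was 1.5 ± 1.33 (SE; limma adjusted p 0.775).

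**Figure D2:**
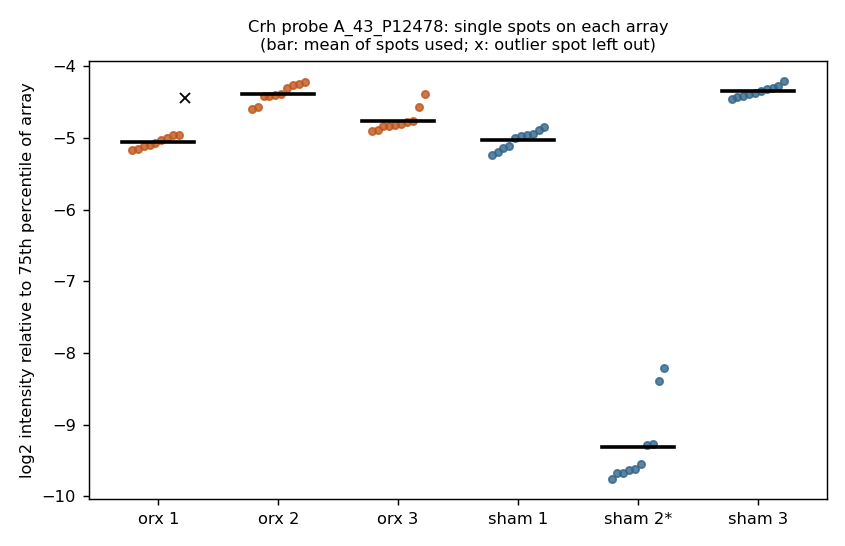
Single spots of the Crh probe A_43_P12478 on each array, as log2 intensity less the array's 75th percentile, drawn in order of value within an array (orx, orchidectomized; bar, mean of the spots used; cross, outlier spot left out). Orchidectomized 2 and sham 3 lie highest, at -4.38 and -4.35, and the array labelled sham 2 lies at -9.31 with 0 of 10 spots well above background.

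The probes of Crh gave the same picture of the arrays. The gap between them, A_64_P116972 minus A_43_P12478, was 1.75 to 2.11 log2 units on the 5 arrays with a hippocampal profile. On the array labelled sham 2 neither probe was well above background. Against the mean of the other 5 arrays Crh was at least 25.9-fold dimmer there by A_64_P116972 and at least 6.98-fold by A_43_P12478. These bounds set the array labelled sham 2 at -7.52, the dimmest log2 value of any probe called well above background on it. They describe that array and were not tested.

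Ucn varied little on the hippocampal arrays, and its difference between groups did not pass the test. The probe A_64_P058336 read -5.46, -5.68 and -5.30 in orchidectomized 1 to 3 and -5.65, -6.98 and -5.50 in sham 1 to 3. Apart from the array labelled sham 2, all values lay within 0.39 log2 units of each other. The difference was 0.09 ± 0.16 (SE) without that array (limma adjusted p 0.988), and its 95% interval ran from 0.807-fold to 1.41-fold. Over 6 arrays it was 0.56 ± 0.44 (SE; limma adjusted p 0.775). The array labelled sham 2 had Ucn 2.76-fold below the mean of the others, well above background.

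Crhr1, the main receptor for CRH, was the member whose level the array labelled sham 2 left within the range of the rest. The probe A_64_P012770 read -5.69, -6.55 and -5.65 in orchidectomized 1 to 3 and -6.06, -6.39 and -5.87 in sham 1 to 3. Orchidectomized 2 was the lowest of the 6 and orchidectomized 3 the highest, so the orchidectomized group spanned the whole sham group. The difference was 0.01 ± 0.30 (SE) without the array labelled sham 2 (limma adjusted p 0.999) and 0.15 ± 0.32 (SE) over 6 arrays (limma adjusted p 0.849). The 95% interval without that array ran from 0.597-fold to 1.69-fold. The probe was dim: on the other 5 arrays it lay 1.14 to 2.34 log2 units above the dimmest probe called well above background.

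Crhr2, the urocortin receptor, was the member that stood higher on the array labelled sham 2. The probe A_64_P079543 read -6.94, -7.60 and -6.81 in orchidectomized 1 to 3 and -5.86, -1.86 and -7.33 in sham 1 to 3. It was well above background on 2 of 3 orchidectomized arrays, orchidectomized 2 being the exception, and on 3 of 3 sham arrays. The probe A_64_P079538 read -6.00, -5.78 and -5.97 in orchidectomized 1 to 3 and -5.89, -2.93 and -5.92 in sham 1 to 3. Both probes were highest on the array labelled sham 2, 33.1-fold and 7.87-fold above the mean of the other 5, on the array where all 18 choroid plexus genes were higher too. For A_64_P079543 that mean rests on 4 arrays with signal well above background and on orchidectomized 2 at its own value of -7.60, just above that array's dimmest probe called well above background, at -7.69.

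The Crhr2 probes did not rank the other 5 arrays alike. A_64_P079538 stayed within 0.22 log2 units on them, while A_64_P079543 ranged over 1.75 with sham 1 highest. Choroid plexus genes varied on the same arrays, with a mean of -3.15 on orchidectomized 1 and -4.43 on sham 3 as the extremes and -3.65 on sham 1. Ttr, a defining choroid plexus gene, read 5.20, 4.87 and 4.36 in orchidectomized 1 to 3 and 3.47 and 2.99 in sham 1 and 3. Its groups did not overlap, which held for 4 of the 17 choroid plexus genes tested and for 16.3% of all probes. Of these 17 genes 15 had a difference above 0 and 2 below, with a median of 0.24 beside -0.02 for all probes. At an unadjusted limma p under 0.05 stood 4 of the 17, beside 2.71% of all probes. Called were 0 of the 17, as were 0% of all probes. The part of choroid plexus RNA in the Crhr2 values was not tested. On the extremes of the list A_64_P079538 read -6.00 and -5.92, and A_64_P079543 read -6.94 and -7.33. The rat gene makes receptor forms with different starts, and which form each probe reads was not analysed here.

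For neither Crhr2 probe did the difference between groups pass the test. Without the array labelled sham 2 the difference was -0.53 ± 0.47 (SE) for A_64_P079543 and -0.01 ± 0.13 (SE) for A_64_P079538 (limma adjusted p 0.988 and 0.996). The interval of the latter was the narrowest of the 7 probes, 0.788-fold to 1.25-fold. That probe was dim: on those arrays it lay 1.59 to 2.29 log2 units above the dimmest probe called well above background. With the array labelled sham 2 the differences were -2.10 and -1.0 (limma adjusted p 0.775 for each), with standard errors of 1.40 and 0.85. The value of A_64_P079543 leaned on sham 1 as well: without both of these sham arrays it turned to 0.21, and without the array labelled sham 2 and sham 3 it was -1.26.

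Crhbp, which encodes the binding protein, was bright on the hippocampal arrays and not above background on the array labelled sham 2. The probe A_44_P104054 read -1.99, -1.36 and -1.26 in orchidectomized 1 to 3 and -1.80, -7.24 and -1.38 in sham 1 to 3. Orchidectomized 1 and sham 1 were the lowest of the 5 hippocampal arrays, as they were for both Crh probes. The means without the array labelled sham 2 were -1.54 ± 0.39 (SD, n = 3) and -1.59 ± 0.30 (SD, n = 2). The difference was 0.05 ± 0.27 (SE; limma adjusted p 0.991), with a 95% interval from 0.654-fold to 1.65-fold. Over 6 arrays it was 1.94 ± 1.61 (SE; limma adjusted p 0.775). The array with the choroid plexus profile had Crhbp at least 51.4-fold dimmer than the mean of the other 5, taken at the probe's own value of -7.24, which lies above that array's dimmest probe called well above background.

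**Figure D3:**
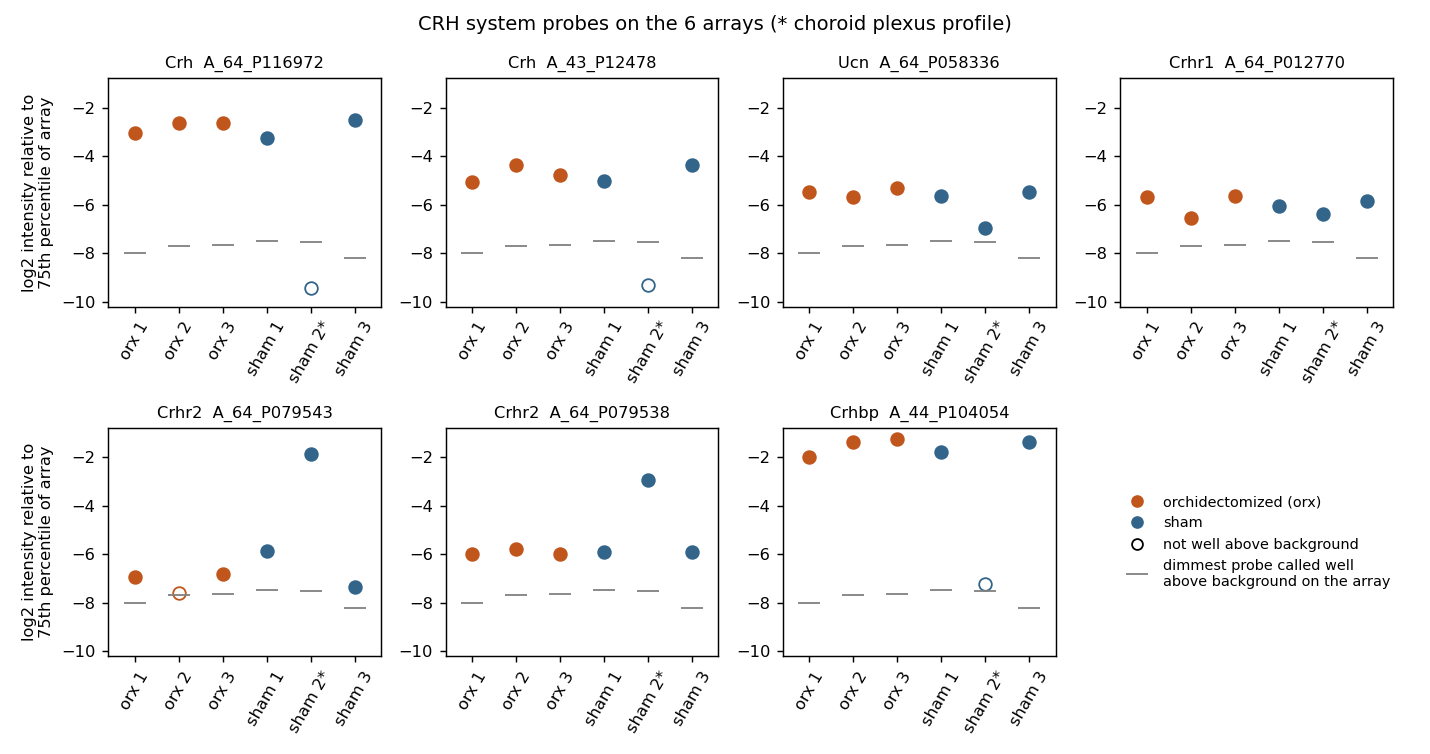
Log2 intensity of the 7 probes on each array, less the array's 75th percentile (orx, orchidectomized; open circles, not well above background; grey dashes, the dimmest probe called well above background on that array). Crh and Crhbp are lowest and Crhr2 highest on the array labelled sham 2, while the remaining orchidectomized and sham values overlap for all 7 probes. Levels are comparable between arrays for the same probe, not between probes.

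The differences over 6 arrays were sensitive to the array labelled sham 2 and to the processing. They ran from -2.10 to 2.29 with the array labelled sham 2 and from -0.53 to 0.12 without it, and the median over the 7 probes was 0.56 and 0.01, beside -0.02 for all probes tested in either comparison. In 6 of 7 probes the array labelled sham 2 lay outside the range of the other 5, as it did for 80.5% of all probes tested. With all 6 arrays kept, normexp background correction gave 0.95 and 0.48 for Crh by A_64_P116972 and A_43_P12478, 1.13 for Crhbp, and -0.79 and -0.37 for Crhr2 by A_64_P079543 and A_64_P079538. Array weights gave 0.35 and 0.21 for Crh, 0.09 for Crhbp, and -1.19 and -0.02 for Crhr2. Without sham 3 the differences were larger, 3.57 and 2.43 for Crh, 2.99 for Crhbp, and -3.26 and -1.5 for Crhr2. The array labelled sham 2 lay over 4 log2 units below the mean of the other 5 for Crh by A_64_P116972 and for Crhbp, as for 6.03% of all probes, and over 4 above for A_64_P079543 of Crhr2, as for 1.82%. These shares count signals as read, also those not well above background. So read, A_43_P12478 of Crh stood at -4.59 against that mean and falls within the 6.03%. The bound given above for it does not reach 4 log2 units. Over 1 log2 unit below stood both Crh probes, Crhbp and Ucn, as for 24% of all probes, and over 1 above stood both Crhr2 probes, as for 18.7%. In bulk RNA fewer cells of a type and less RNA per cell cannot be told apart.

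**Figure D4:**
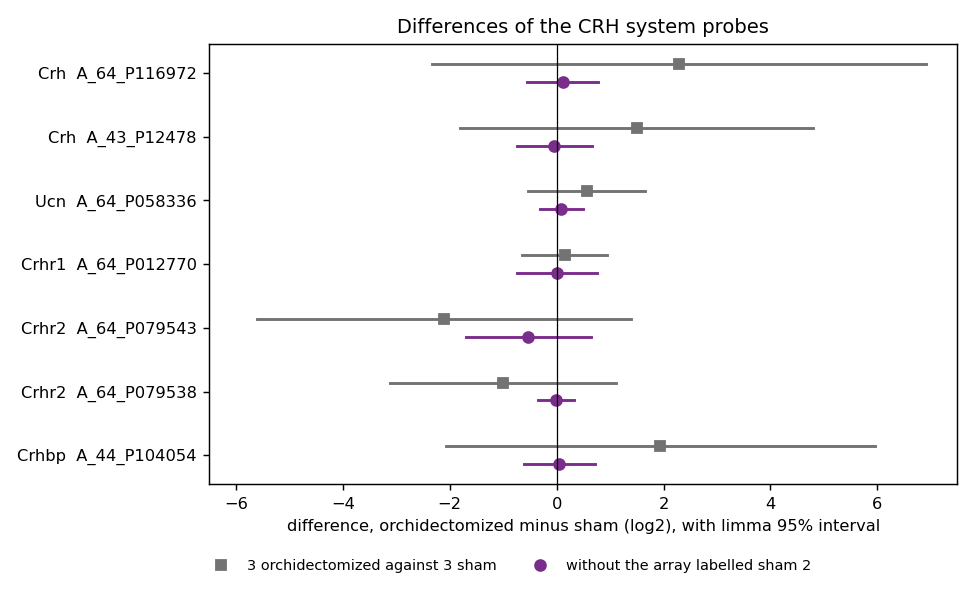
Difference between groups (orchidectomized minus sham, log2) of the 7 probes with the 95% interval from limma, over 6 arrays (squares) and without the array labelled sham 2 (circles). All 14 intervals include 0, and those without that array lie between -1.70 and 0.78.

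Scanning took 2 days and 4 slides were used. Orchidectomized 3 shared a slide with sham 1, the only slide with both groups. On the first day of scanning all 3 orchidectomized arrays and sham 1 were read. Within that slide the differences were 0.62 and 0.27 for the Crh probes A_64_P116972 and A_43_P12478, 0.35 for Ucn, 0.41 for Crhr1 and 0.54 for Crhbp. For Crhr2 they were -0.96 by A_64_P079543 and -0.08 by A_64_P079538. Within the first scan day they were 0.49 and 0.30 for Crh, 0.16 for Ucn, 0.10 for Crhr1, 0.27 for Crhbp, and -1.26 and -0.03 for Crhr2. All of these rest on sham 1 alone as the sham array, and none passed the adjusted threshold in limma. The other batches held arrays of 1 group only.

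Both Crh probes were higher on orchidectomized 2 and sham 3 than on orchidectomized 1 and sham 1. Of the 16 interneuron genes 6 were higher on orchidectomized 2, and 9 on sham 3, than on both of the latter arrays, with Dlx5 counted among those on sham 3 by a margin lost on rounding. Of 13 glutamatergic genes 7 and 11 were. Sst, which encodes the interneuron peptide somatostatin, read 3.42, 4.02 and 3.32 in orchidectomized 1 to 3 and 3.62, -4.01 and 3.85 in sham 1 to 3. Gad1, the GABA-synthesis enzyme of interneurons, read 3.55, 3.38 and 3.82 in orchidectomized 1 to 3 and 3.66 and 3.55 in sham 1 and 3. The summed level of the 16 interneuron genes was highest on orchidectomized 3 (71.1) and lowest on orchidectomized 1 (57.9). The vasopressin gene Avp, a marker of hypothalamus, was -2.56, -2.58 and -3.13 in orchidectomized 1 to 3 and -2.44 and -2.64 in sham 1 and 3. Hypothalamic genes as a list had a summed level of 1.64 to 1.73 on the orchidectomized arrays and 2.17 and 1.77 on sham 1 and 3, with Sim1 not well above background on any array and the list's sum at 7.37 on the array labelled sham 2. On that array 4 of the list's 10 detected genes were higher than the mean of the others. Hdc, named after its value was seen, read 2.61 there and -3.91 to -2.51 on the others. The part of these markers in the Crh values was not tested.

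Genes with the most similar values over the 6 arrays were found by the root mean square difference of log2 values, each gene centred on its own mean. Over these arrays the one labelled sham 2 lay farthest from the rest for Crh, Ucn, Crhr2 and Crhbp, and so weighs most in this measure for them. For Crh and Crhbp that value is not well above background, so their lists and distances rest on an undetected level and only describe the signals as deposited. For Crh they were Arg1, Dpp6 and Ankrd33b, at 0.11, 0.15 and 0.15, where the median over the 15054 named probes tested was 2.50. For Ucn they were Ube2e2, Tgfb3 and Btbd3 (0.06, 0.06 and 0.07), and for Crhr1 Dlk1, F2r and Pask (0.08, 0.12 and 0.15). For Crhr2 by A_64_P079538 they were Nnt, Trim5 and Fkbp14 (0.03, 0.07 and 0.07). For Crhbp they were Gstm6, Cttnbp2 and Snx10 (0.14, 0.15 and 0.16). The medians over the named probes tested were 0.71 for Ucn, 0.54 for Crhr1, 1.13 for Crhr2 and 2.16 for Crhbp. Arg1, which encodes the urea cycle enzyme arginase, read -0.06, 0.17 and 0.15 in orchidectomized 1 to 3 and -0.18, -6.59 and 0.37 in sham 1 to 3. From lowest to highest, its order over the 6 arrays was that of Crh by A_64_P116972. Arg1 was picked as the closest gene on these same values, so that order is no separate result.

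Further ligands and signalling genes of the pathway gave 0 calls in either comparison. Of 32 listed genes 30 were tested, and their median difference was 0.04 without the array labelled sham 2 (18 above 0, 12 below) and 0.66 with it (26 above 0, 4 below). Ucn2, which encodes the Crhr2-selective urocortin 2, read -3.01, -3.18 and -2.94 in orchidectomized 1 to 3 and -2.98, -3.21 and -3.28 in sham 1 to 3. Its difference was 0.09 ± 0.16 (SE) without the array labelled sham 2 (limma adjusted p 0.988), and its second probe gave 0.06. Ucn3, the gene of the other Crhr2-selective urocortin, was well above background on 0 of 6 arrays and was left untested. The smallest unadjusted p of the list without that array belonged to Grk3, a kinase that desensitises Crhr1, with a difference of 0.35 and a standard error of 0.17 (limma adjusted p 0.988). It was the 1 gene of these 30 whose groups did not overlap, where 16.3% of all probes did not. The protein kinase A subunit gene Prkacb differed by 0.30, the orphan nuclear receptor gene Nr4a3 by 0.41 and the receptor kinase gene Grk5 by -0.23, each with a limma adjusted p of 0.988. Over 6 arrays the values were 1.85 for Grk3, 0.73 for Prkacb, 2.57 for Nr4a3 and 0.19 for Grk5, so Grk5 changed sign.

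Genes of the pituitary-adrenal axis and corticosteroid feedback gave 0 calls among 14 tested of 17 listed. Their median difference was -0.06 without the array labelled sham 2 (6 above 0, 8 below) and 0.40 with it, and groups did not overlap in 2 of 14 without it, beside the same 16.3% of all probes. Those 2 were Hsp90aa1, a chaperone of steroid receptors, at 0.30, and Hsd11b1, which regenerates active corticosterone, at 0.20. The glucocorticoid receptor gene Nr3c1 differed by -0.05 and the mineralocorticoid receptor gene Nr3c2 by -0.06, with standard errors of 0.13 each. The glucocorticoid-induced kinase gene Sgk1 read -0.02, 0.03 and -0.22 in orchidectomized 1 to 3 and -0.11, 2.05 and 0.76 in sham 1 to 3, a difference of -0.40 without the array labelled sham 2. The prohormone convertase gene Pcsk1, whose enzyme cuts peptide precursors, differed by -0.45. Avp differed by -0.21 and Pomc, the precursor of corticotropin, by 0.13. All of these had a limma adjusted p of 0.988 without that array. Over 6 arrays the values were 0.17 for Hsp90aa1, 2.06 for Hsd11b1, 0.18 for Nr3c1, 0.72 for Nr3c2, -0.97 for Sgk1, 1.73 for Pcsk1, 0.62 for Avp and -0.37 for Pomc, with another sign for Nr3c1, Nr3c2, Pcsk1, Avp and Pomc.

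Other stress and neuromodulatory peptides and their receptors gave 0 calls among 22 tested of 24 listed. Their median difference was -0.04 without the array labelled sham 2 (10 above 0, 12 below) and 1.74 with it, where all 22 were above 0. Cartpt, which encodes the CART peptides, had the smallest unadjusted p of the list, 0.0214. It read -2.30, -1.21 and -1.74 in orchidectomized 1 to 3 and -0.93, -5.15 and -0.33 in sham 1 to 3. Without the array labelled sham 2 both sham values lay above all orchidectomized values, with a difference of -1.12 and a standard error of 0.36 (limma adjusted p 0.988). With it the groups overlapped and the difference was 0.39. Pnoc, which encodes the nociceptin precursor, differed by -0.31, Adcyap1, which encodes the peptide PACAP, by -0.31, and the galanin gene Gal by -0.37, each with a limma adjusted p of 0.988. Over 6 arrays Pnoc had 1.5, Adcyap1 0.72 and Gal 1.40, each with the other sign. Without the array labelled sham 2 the groups did not overlap in 4 of 22 genes, beside 16.3% of all probes: Pnoc, Adcyap1 and Cartpt, and the somatostatin receptor gene Sstr4 at 0.54, named after its value was seen.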

How the data were processed

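Each of the 6 files held 1 Cy3 array, read with Agilent Feature Extraction 10.5.1.1 per the file headers. The authors' deposited intensity used here is the processed signal, background-subtracted, with spatial detrending recorded in the headers; flags for saturation, outliers and signal above background are also theirs. A table of log2 values that the authors deposited equals the log2 processed signal plus a constant per array (-0.322 to 0.719) whose origin is not given in the sources used here; the median of a column was 8.02, 7.94 or 7.91 in orchidectomized 1 to 3, and 7.77, 7.62 or 8.04 in sham 1 to 3. Its scale is log2, 1-colour values have no direction, and its centring stays unknown.

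Control spots and outlier spots were left out, log2 processed signals of a probe's spots were averaged, and the 75th percentile of each array was subtracted. The flag for signal well above background was given to a probe when at least 50% of its spots had it, which held for 23785 to 26173 of 30367 probes per array. RefSeq accessions matched without versions to the GRCr8 gene table named 18004 probes; the header's build is another, so no array coordinates are given. A probe entered the test if either group had it well above background on every array. The test was limma's moderated one (version 3.58.1, lmFit then eBayes, under R 4.3.3), with two-sided p-values adjusted by Benjamini-Hochberg, and was tested on simulated data. Probes with no value on an array (1 to 3 per array) were left out.

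The 5 genes, the gene lists and the rule for named genes were chosen with earlier results of these data known. Named were all probes of the 5 genes, up to 4 genes per list with the smallest unadjusted p without the array labelled sham 2, a few fixed genes, and the 3 most alike genes per member; for other genes the brightest probe was used. Marker lists of 12 cell types, regions and tissues were kept as description; Kl and Ttr of the choroid plexus list read 3.72 and 5.16 on the array labelled sham 2 and -7.87 to -5.65 and 2.99 to 5.20 on the others. Alternatives were normexp (offset 50, on median spot signals), quantile normalization, scaling to the median, no brightness filter or one on all arrays used, the deposited values, a variance trend, array weights, a block for the slide, the day of scanning or the replicate number, and leaving out each array. Precision is limited by the 6 arrays.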

Additional observations from a re-analysis of the deposited data

How the results depend on the processing

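No probe of the 5 genes passed the adjusted threshold under any setting run, with adjusted p from 0.215 over 6 arrays and from 0.234 without the array labelled sham 2. Over 6 arrays the count of all probes called was 0, then 1 with quantile normalization and 13 with array weights (0.028 for the array labelled sham 2); leaving out arrays gave 0 to 0. Without that array the count was 0, and 2 with quantile normalization, 1 with median scaling, 18 with the deposited values and 10 with scan day as a block. It ranged from 0 to 251 when a further array was left out, 251 without sham 3 and 22 without sham 1, where the spread of the single sham array left is taken from the orchidectomized arrays and probes bright on it alone enter the test.

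Some differences changed sign, the -0.53 of Crhr2 A_64_P079543 among them, and the cause was not tested. For Crh by A_43_P12478 without the array labelled sham 2 the value was 0.14 with normexp, 0.06 with quantile normalization, 0.03 with the deposited values, 0.27 within slides and 0.30 within scan days. For Crhr2 by A_64_P079538 it was 0.24, 0.18 and 0.04 under the former 3 of these settings, and by A_64_P079543 0.16 with normexp, where the median of all probes was itself 0.083. With array weights Crhbp had -0.10 and Crhr1 -0.07, and Crhr1 had -0.02 over 6 arrays. Requiring signal well above background on all arrays used gave no value for Crhr2 A_64_P079543 in either comparison, nor for Crh and Crhbp over 6 arrays. Median scaling put the median of all probes at -0.101 over 6 arrays. With the replicate number as a block 0 probes were called in either comparison and Crhbp had -0.03; it changed no call. Deviations of same-numbered arrays from their group means correlated at 0.027, -0.023 and -0.018. Whether the numbers pair the animals cannot be told from these values, since the sham mean includes the array labelled sham 2.

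Leaving out each array in turn gave ranges over 6 arrays of -0.04 to 2.43 for Crh A_43_P12478 and -0.01 to 0.44 for Crhr1, and, with no change of sign, 0.12 to 3.57 for Crh A_64_P116972, 0.05 to 2.99 for Crhbp, 0.09 to 0.83 for Ucn, -3.26 to -0.53 for Crhr2 A_64_P079543 and -1.5 to -0.01 for A_64_P079538. Without the array labelled sham 2 they were -0.38 to 0.30 and, by A_64_P116972, -0.26 to 0.49 for Crh, -0.16 to 0.28 for Crhbp, -0.15 to 0.30 for Crhr1, -0.08 to 0.03 for Crhr2 A_64_P079538 and -1.26 to 0.21 for A_64_P079543. Apart from the array labelled sham 2, the probes of Crhr1, Ucn and Crhr2 came closest to the dimmest probe called well above background. A_64_P079543 came within 0.08 log2 units of it. Standard errors without the array labelled sham 2 did not follow brightness. They were 0.13 for the dim A_64_P079538, 0.16 for Ucn, 0.27 for the bright Crhbp and 0.47 for A_64_P079543.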
